A study of Mus musculus with 15 samples.

Results

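Haemoglobin and erythroid genes were followed across RNA-sequencing libraries from the foetal mouse cortex, as a reading of the blood held in each sample. The set was fixed by name and lists 9 genes, of which 8 are among the 23132 genes retained from the count table. It holds the adult alpha-globin genes Hba-a1 and Hba-a2, the embryonic alpha-like gene Hba-x, the adult beta-globin genes Hbb-bs and Hbb-bt, the embryonic beta-like genes Hbb-y and Hbb-bh1, and 2 red cell genes, Alas2 and Slc4a1. The identifier of Hbb-bt had no row in that table, so no value is given under that name. Another adult beta-globin entry, Hbb-b1, was counted under its own identifier and is given beside the set without belonging to it. Whether that entry counts reads of Hbb-bt was not tested.

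The study compared mice lacking Phf6, a chromatin protein gene on the X chromosome, with controls, in 15 libraries from C57BL/6 male foetuses of 7 litters. Cortex was dissected at E15.5 and used directly, from 3 Phf6 +/Y controls and 5 Phf6 –/Y foetuses, in which the deletion came through the germline and so also covers blood cells. Cortical neurons came from E16.5 cortices that were digested with trypsin, sieved and cultured, from 3 controls (Phf6 +/Y;Nes-cre Tg/+) and from 4 foetuses with the floxed allele (Phf6 lox/Y;Nes-cre Tg/+). Both neuron groups carry the Nes-cre transgene, which is active in the developing nervous system, so blood cells of these foetuses are not the intended target of the deletion. The cortex libraries came from litters 1, 2 and 3, each with control and Phf6-deleted foetuses. The neuron libraries came from litters 4, 5, 6 and 7, of which litter 7 had no control. The libraries held 16858007 to 31157700 counted reads. Phf6 itself ranged from 149 to 191 CPM (reads of a gene per 1000000 reads of the library, after TMM scaling) in control cortex and from 42.4 to 55.2 CPM in Phf6-deleted cortex, and from 228 to 259 CPM in control neurons and from 59.9 to 85.8 CPM in Phf6-deleted neurons, so that every library matched its label.

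Haemoglobin is a tetramer of alpha-like and beta-like chains, each holding a haem group. Red cells that arise first, in the yolk sac, make embryonic chains from Hba-x, Hbb-y and Hbb-bh1 and circulate for several days. Red cells from the foetal liver make adult chains from Hba-a1, Hba-a2 and the adult beta-globin genes. Which of these cells the adult globin reads came from was not tested. Alas2 encodes the erythroid enzyme that starts haem synthesis, and Slc4a1 encodes band 3, the anion exchanger of the red cell membrane. Mouse red cells lose their nucleus but keep globin mRNA for a time, so blood in vessels contributes these transcripts to a dissected tissue. Globin transcripts have also been described in some brain neurons. In bulk RNA, fewer cells of a type and less RNA per cell cannot be told apart.

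The promoters of one adult and one embryonic gene of each cluster are shown because the libraries differed most in the balance of these 2 classes. Each line gives the 150 bases before the transcription start from RefSeq, in build GRCm38.p6, 5′ to 3′ on the strand of the gene, with capitals marking matches on either strand to the TATA box (TATAA), the CCAAT box (CCAAT), the CACCC box (CACCC) and the GATA motif (GATAA). The windows lie at chr11:32283522-32283671 (plus strand) for Hba-a1, chr11:32276450-32276599 (plus strand) for Hba-x, chr7:103827929-103828078 (minus strand) for Hbb-bs and chr7:103853208-103853357 (minus strand) for Hbb-y.
Hba-a1: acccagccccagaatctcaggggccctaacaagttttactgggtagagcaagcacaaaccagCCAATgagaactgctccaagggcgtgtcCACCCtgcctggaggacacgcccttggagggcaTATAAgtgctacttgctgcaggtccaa
Hba-x: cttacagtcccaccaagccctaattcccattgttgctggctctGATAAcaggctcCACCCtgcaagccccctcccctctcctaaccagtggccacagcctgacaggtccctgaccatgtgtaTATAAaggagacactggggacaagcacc
Hbb-bs: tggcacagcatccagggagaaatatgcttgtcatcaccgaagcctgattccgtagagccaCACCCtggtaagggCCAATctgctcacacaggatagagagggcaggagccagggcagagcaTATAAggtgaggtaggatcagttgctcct
Hbb-y: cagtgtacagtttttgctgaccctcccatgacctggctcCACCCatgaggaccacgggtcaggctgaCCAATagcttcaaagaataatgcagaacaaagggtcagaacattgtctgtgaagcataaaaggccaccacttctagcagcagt
TATAA was present in the windows of Hba-a1, Hba-x and Hbb-bs, and in 14.2% of all 32851 promoter windows of this length. CCAAT was present in those of Hba-a1, Hbb-bs and Hbb-y (24.5% of all windows), CACCC in all 4 (37.4%) and GATAA in that of Hba-x (13.3%). The windows of Hba-a1 and Hba-a2 shared an unbroken run of 147 bases. These matches describe the letters in the windows only.

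The genes lie in 2 clusters and at 2 other loci. On chromosome 11, Hba-x spans 32276600 to 32278116, Hba-a1 spans 32283672 to 32284486 and Hba-a2 spans 32296492 to 32297310, and Slc4a1 spans 102348820 to 102365281. On chromosome 7, Hbb-bt spans 103812524 to 103813923, Hbb-bs spans 103826523 to 103827928, Hbb-bh1 spans 103841638 to 103843162 and Hbb-y spans 103851754 to 103853207. Alas2 spans 150547417 to 150570622 on chromosome X. Several of these genes are near-copies. Of all windows of 80 bases, the sequencing length given in the labels, in the longest annotated transcript, 61.1% of those of Hba-a1 and 79.8% of those of Hba-a2 were identical in the other gene, and 63.9% of those of Hbb-bs were identical in Hbb-bt. Hba-x, Hbb-y, Hbb-bh1, Alas2 and Slc4a1 shared no such window with any other gene. How reads matching several genes were treated was not given in the sources used here, so the split between Hba-a1 and Hba-a2, and the level of Hbb-bs and Hbb-b1, are uncertain.

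Adult globins had the highest mean levels of the set in control cortex. Per kilobase of transcript, control cortex held 171.7 ± 29.3 RPKM (CPM per kilobase; SD, n = 3) of Hba-a1, 138.7 ± 26.7 RPKM of Hba-a2 and 137.8 ± 43.4 RPKM of Hbb-bs. The level of Hbb-y was 80.6 ± 73.4 RPKM, of Hba-x 14.5 ± 13.6 RPKM, of Alas2 7.45 ± 1.09 RPKM, of Hbb-bh1 0.857 ± 0.635 RPKM and of Slc4a1 0.581 ± 0.244 RPKM. The 3 adult globin genes differed by less than the SD of Hbb-bs, and the embryonic genes had the largest SDs relative to their means. Libraries differed in this order: in Phf6-deleted replicate 1 Hbb-y, at 403.7 RPKM, exceeded Hba-a1, at 160.5 RPKM, and in control replicate 1 Hbb-y, at 163.9 RPKM, exceeded Hbb-bs, at 114.2 RPKM.

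**Figure D1:**
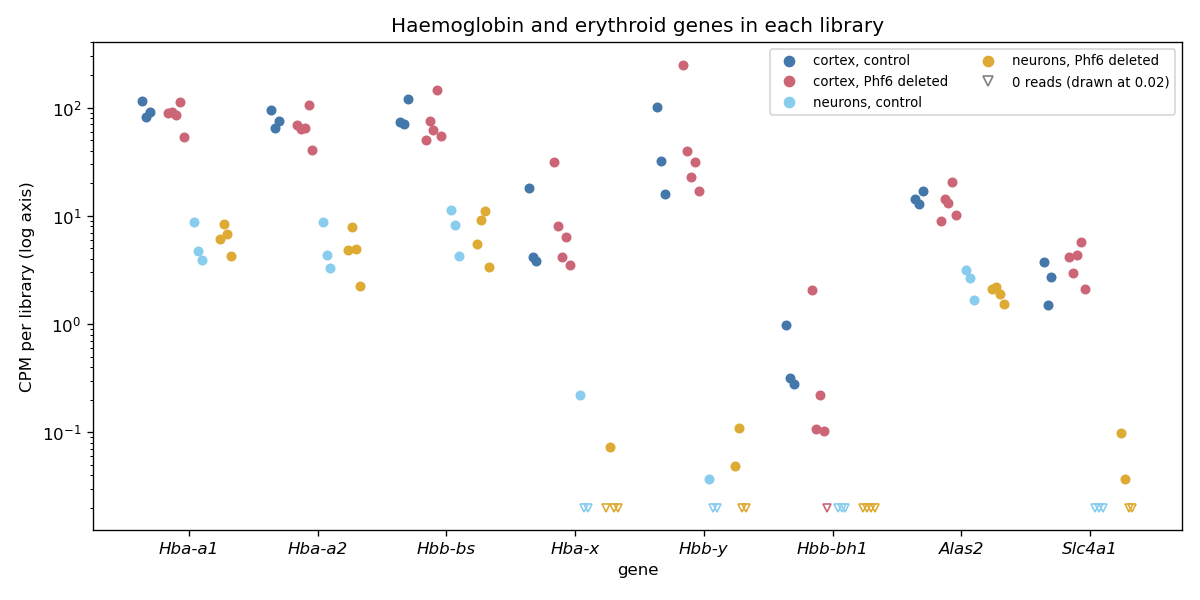
CPM (log axis) of the 8 genes with a row in the table, one point per library, coloured by group, with libraries at 0 reads drawn as open triangles. Hba-a1, Hba-a2, Hbb-bs and Alas2 were read in every library, while Hba-x, Hbb-y, Hbb-bh1 and Slc4a1 were at or near 0 in neurons.

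The adult alpha-globins moved within a narrow range in cortex. Hba-a1 stood at 114, 82.0 and 92.0 CPM in control replicates 1 to 3 and at 89.7, 91.6, 86.2, 112.9 and 53.8 CPM in Phf6-deleted replicates 1 to 5. Hba-a2 stood at 94.6, 65.1 and 74.6 CPM in the controls and at 68.4, 62.9, 64.8, 106.5 and 40.6 CPM in the Phf6-deleted foetuses. Phf6-deleted replicate 5 was the lowest library for both genes and the groups overlapped.

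Hbb-bs stood at 73.0, 71.2 and 120.1 CPM in control cortex and at 50.3, 74.5, 62.3, 144.4 and 55.1 CPM in Phf6-deleted cortex. The highest library of each group came from litter 1. Hbb-b1 followed it, with 77.4, 73.8 and 92.7 CPM in controls and 54.6, 64.8, 57.6, 121.9 and 47.8 CPM in Phf6-deleted cortex.

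The embryonic globins separated one litter from the other cortex litters. Hbb-y stood at 101.5, 32.4 and 15.8 CPM in control cortex and at 249.9, 39.9, 22.8, 31.3 and 17.0 CPM in Phf6-deleted cortex. Hba-x stood at 18.2, 4.16 and 3.83 CPM in controls and at 31.7, 8.07, 4.13, 6.43 and 3.51 CPM in Phf6-deleted cortex. For both genes the 2 highest libraries were control replicate 1 and Phf6-deleted replicate 1, which are the 2 libraries of litter 3. Hbb-bh1 was low throughout, with 0.970, 0.317 and 0.282 CPM in controls and 2.06, 0.107, 0.219, 0.102 and 0 CPM in Phf6-deleted cortex, and its 2 highest libraries were again those of litter 3. Across the 8 cortex libraries Hbb-y spanned a 15.8-fold range and Hba-x a 9.03-fold range, against 2.12-fold for Hba-a1 and 2.87-fold for Hbb-bs.

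Counted as a share of all beta-like globin reads (Hbb-y, Hbb-bh1, Hbb-bs and Hbb-b1), embryonic reads made up 40.5% (95% Wilson interval 39.5 to 41.6) in control replicate 1 and 70.6% (69.6 to 71.6) in Phf6-deleted replicate 1, both of litter 3. In the 6 libraries of litters 1 and 2 the share ranged from 7.03% to 22.3%. The Hba-x share of alpha-like reads was 8.02% (7.41 to 8.66) and 16.7% (15.6 to 17.8) in the litter 3 libraries and 2.25% to 4.96% in the others. These intervals cover counting error only.

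**Figure D2:**
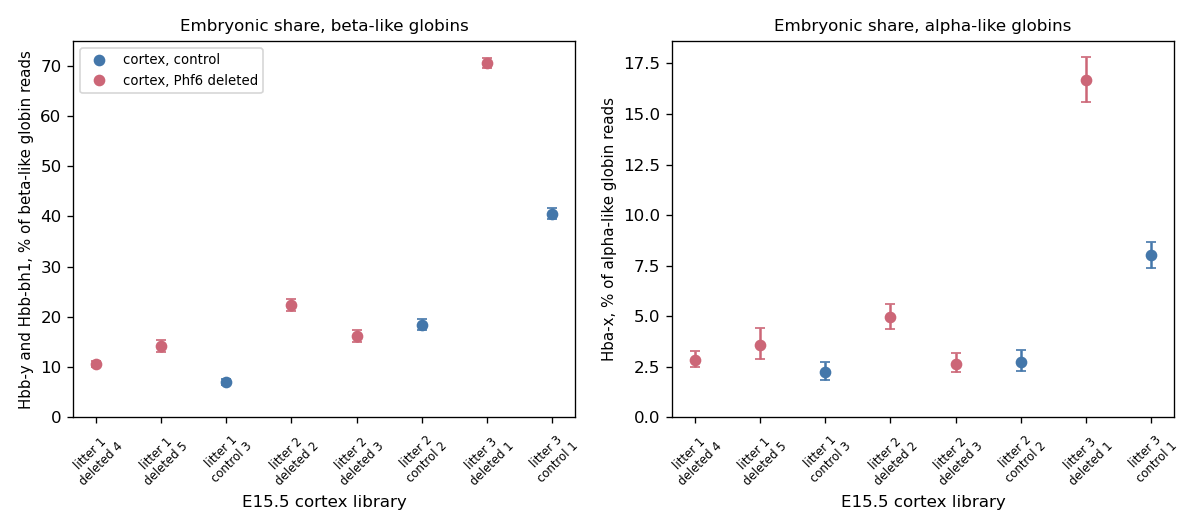
Embryonic share of beta-like (left) and alpha-like (right) globin reads in percent, for each E15.5 cortex library ordered by litter; bars are 95% Wilson intervals and colours mark genotype. Both litter 3 libraries lie above all 6 libraries of litters 1 and 2 in both panels.

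Litters of E15.5 cortex were tested against each other with genotype in the fit, using the quasi-likelihood test of edgeR with Benjamini-Hochberg adjustment over all genes. Of 7 genes of the set that passed the filter on low counts, Hba-x was the one called at an FDR of 0.05, beside 1.7% of all genes tested. Its level in litter 3 was 2.50 higher than in litter 1 on the log2 scale (adjusted p = 0.00605, edgeR). Hbb-y was 3.06 higher on the log2 scale in litter 3 than in litter 1 and was not called (adjusted p = 0.107, edgeR). Without Phf6-deleted replicate 1 litter 3 is left with 1 library and the adjusted p of Hba-x was 0.191. That library, control replicate 1, was at 18.2 CPM against 3.51 to 6.43 CPM in litter 1. Phf6-deleted replicate 1 also stands apart in other genes: Tal1, a transcription factor of blood and of some neurons, was at 13.8 CPM against 1.59 to 3.44 CPM in the other cortex libraries, and Gata1, the master regulator of red cell genes, was at 0.378 CPM from 9 reads, its highest value in any library. The part of these differences in the result was not tested. The exact age of each litter within the stage was not given in the sources used here.

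The adult globins and red cell genes were not called between cortex litters. The log2 difference of litter 3 over litter 1 was 0.22 for Hba-a1, 0.11 for Hba-a2, −0.84 for Hbb-bs, −0.50 for Alas2 and 0.31 for Slc4a1. Of the other fixed lists, haem synthesis and iron had 1 of 16 tested genes called between litters, Tfrc, the transferrin receptor, which was 0.60 higher in litter 3 than in litter 1 on the log2 scale (adjusted p = 0.0160, edgeR). Erythroid regulators had 2 of 22 called, among them Ikzf1 at −1.11 on the log2 scale for litter 3 over litter 1. The red cell membrane list had 0 of 11 called and 1 at an unadjusted p under 0.05, beside 2280 of all 14750 genes (edgeR).

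Deletion of Phf6 in cortex, the comparison the study was built for, was followed by 0 calls among the 7 tested genes of the set, beside 0.386% of all genes tested, and by 0 with limma and with DESeq2. At an unadjusted p under 0.05 there was 1, beside 1542 of all 14750 genes tested. It was Hba-x, with a log2 difference of 0.57 ± 0.25 (SE; Phf6-deleted over control, litter in the fit; adjusted p = 0.477, edgeR). The mean of the Phf6-deleted libraries over the control of the same litter was 1.30, 1.47 and 1.75 for Hba-x in litters 1, 2 and 3. In litters 1 and 2, 1 of the 2 Phf6-deleted libraries lay below its control, at 3.51 against 3.83 CPM and at 4.13 against 4.16 CPM. Hbb-y had a log2 difference of 0.56 ± 0.41 (SE), with within-litter ratios of 1.53, 0.968 and 2.46. The adult globins had log2 differences of −0.11 ± 0.27 for Hba-a1, −0.15 ± 0.36 for Hba-a2 and −0.27 ± 0.37 for Hbb-bs (SE). Each was smaller than its standard error.

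Of the red cell genes in cortex, Alas2 stood at 14.2, 12.9 and 17.1 CPM in controls and at 8.99, 14.3, 13.2, 20.5 and 10.2 CPM in Phf6-deleted foetuses, a log2 difference of −0.21 ± 0.23 (SE). Slc4a1 stood at 3.72, 1.505 and 2.70 CPM in controls and at 4.16, 2.94, 4.32, 5.78 and 2.09 CPM in Phf6-deleted foetuses. Its log2 difference was 0.67 ± 0.35 (SE; adjusted p = 0.552, edgeR). Its within-litter ratios were 1.46, 2.41 and 1.12 in litters 1, 2 and 3. In litter 1, 1 Phf6-deleted library lay below its control, at 2.09 against 2.70 CPM. The median log2 difference over the 7 tested genes was −0.11. The lists of haem synthesis and iron, red cell membrane and erythroid regulators had 0 called of 16, 11 and 22 tested genes (edgeR), with 1, 2 and 2 at an unadjusted p under 0.05, beside the same 1542 of 14750 genes, and with median log2 differences of −0.02, 0.03 and −0.08.

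**Figure D3:**
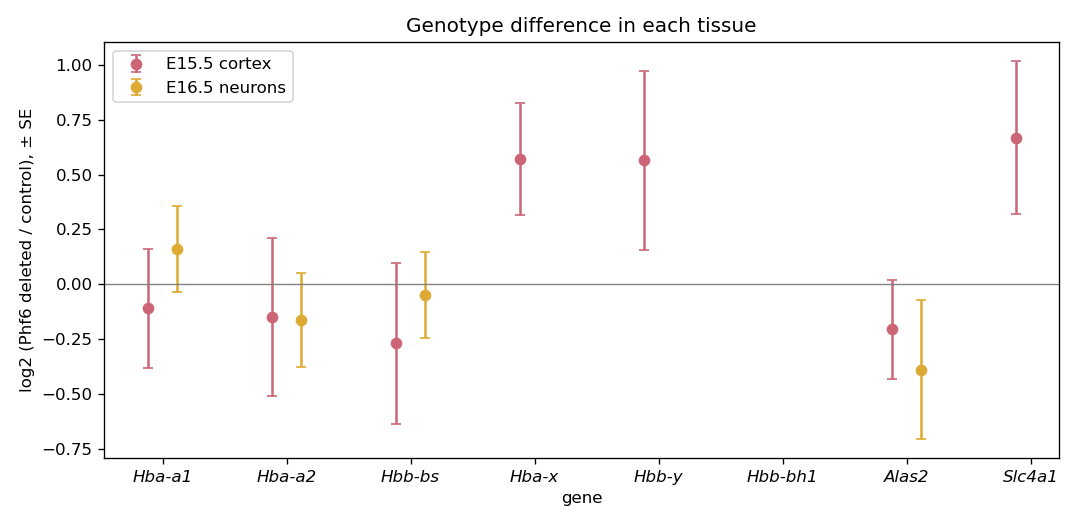
Log2 difference of Phf6-deleted over control libraries for each tested gene, with bars of 1 SE, in E15.5 cortex (7 genes) and E16.5 neurons (4 genes). No gene of the set was called at an FDR of 0.05 in either tissue.

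Levels of vessel and connective tissue genes also varied between the cortex libraries, and ranked with the adult globins only in part. Phf6-deleted replicate 4 had the highest summed level of Hba-a1, Hba-a2 and Hbb-bs, 363.8 CPM, and also the highest summed level of the 14 endothelial genes, 460.7 CPM, and of the 12 pericyte and fibroblast genes, 757 CPM. Phf6-deleted replicate 5 had the lowest summed adult globin level, 149.5 CPM, and the lowest endothelial sum, 214.7 CPM. The other 6 libraries lay between 208.4 and 286.7 CPM for the adult globins and between 249.6 and 302.6 CPM for the endothelial genes. Both Phf6-deleted extremes came from litter 1. Among the other 6, control replicate 3 was highest in both, but control replicate 1 had 281.5 CPM of adult globins with 260.8 CPM of endothelial genes. Phf6-deleted replicate 2 had 229 CPM with 300.1 CPM. The lowest pericyte and fibroblast sum, 131.4 CPM, was that of control replicate 1, while control replicate 3 had 431.8 CPM. Markers of neutrophils and mast cells summed to at most 0.753 CPM in any cortex library. The part of vessel content in the globin levels was not tested.

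**Figure D4:**
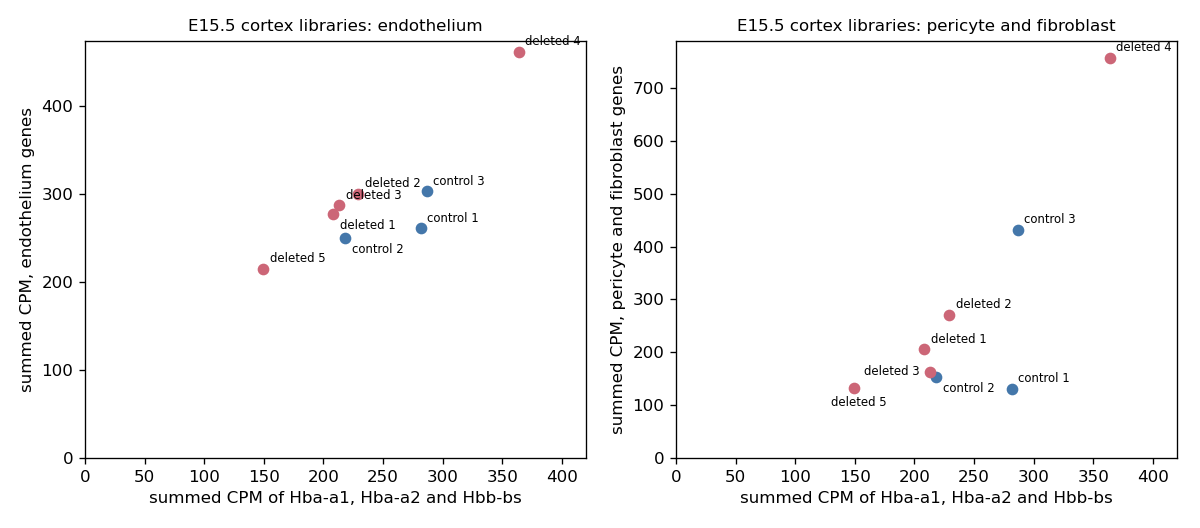
Summed CPM of endothelial genes (left) and of pericyte and fibroblast genes (right) against summed CPM of Hba-a1, Hba-a2 and Hbb-bs in the 8 cortex libraries, coloured by genotype and labelled by replicate. Phf6-deleted replicate 4 is highest on every axis and Phf6-deleted replicate 5 is lowest for the globins and the endothelial genes. Control replicate 1 is lowest for the pericyte and fibroblast genes.

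Control neurons had a lower mean level than control cortex of each of the 8 measured genes of the set. Control neurons were compared with control cortex, which differ in age, culture and the Nes-cre transgene as well as in cell type, and these cannot be told apart. All 7 tested genes of the set were lower in neurons, beside 26.4% of all genes tested that were lower and 51.1% that were called in either direction. Hba-x, Hbb-y and Slc4a1 passed the filter on low counts through their cortex reads, so the count of 7 is no support by itself. Of the other lists, all 13 tested endothelial genes were lower, with a median log2 difference of −5.40. In the neuron libraries alone 6 endothelial genes passed the filter, so this count is likewise no support by itself. All 10 progenitor genes were lower, with a median of −1.95. Other lists fell in part: 7 of 12 tested pericyte and fibroblast genes, 4 of 15 microglia and macrophage genes and 2 of 4 platelet and megakaryocyte genes were called lower. Of 10 cortical neuron genes, 7 were higher and 3 lower.

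The genes of the set fell by unequal amounts. Alas2 fell by 2.55 ± 0.24 on the log2 scale (SE; adjusted p = 2.238e-06, edgeR), from a mean of 14.8 to 2.51 CPM. Hbb-bs fell by 3.47 ± 0.42, Hba-a2 fell by 3.81 ± 0.38 and Hba-a1 fell by 4.03 ± 0.30 on the log2 scale (SE). Pooled over the 3 control libraries of each tissue, Hba-x went from 781 reads to 6, a ratio of CPM of 114 (95% counting interval 52.3 to 310). Hbb-y went from 4453 reads to 1, a ratio of 3890 (699 to 154000). Control cortex replicate 1, of litter 3, held 581 of the cortex reads of Hba-x and 3244 of those of Hbb-y. These intervals cover the counting error of the neuron reads only, not the spread between libraries. Slc4a1 went from 224 reads to 0 and was at least 65.3-fold lower, and Hbb-bh1 went from 46 reads to 0 and was at least 13.4-fold lower, both against a floor of 3 reads over the group. Without control neuron replicate 1, which held all 7 reads of Hba-x and Hbb-y in this group, 5 of the 7 genes were called, since Hba-x and Hbb-y had adjusted p of 0.0901 and 0.107 (edgeR).

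The 4 genes that remained readable in neurons were present in every neuron library. Hba-a1 stood at 8.77, 4.75 and 3.95 CPM in control replicates 1 to 3 and at 6.06, 8.32, 6.75 and 4.23 CPM in Phf6-deleted replicates 1 to 4. Hba-a2 stood at 8.77, 4.38 and 3.29 CPM and at 4.83, 7.88, 4.90 and 2.26 CPM. Control and Phf6-deleted libraries overlapped for both. Hbb-bs stood at 11.2, 8.21 and 4.30 CPM in controls and at 5.52, 9.20, 11.2 and 3.36 CPM in Phf6-deleted neurons. Alas2 stood at 3.19, 2.68 and 1.67 CPM in controls and at 2.12, 2.21, 1.91 and 1.54 CPM in Phf6-deleted neurons. Over all 7 neuron libraries Hba-x had 8 reads, Hbb-y 5, Slc4a1 3 and Hbb-bh1 0.

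The mix of transcripts also differed between the tissues. Hbb-b1 reads were 0.772 to 1.09 times Hbb-bs reads in the 8 cortex libraries and 0.210 to 0.371 times in the 7 neuron libraries, with no overlap. In the control comparison Hbb-b1 fell by 5.03 ± 0.34 on the log2 scale (SE), against 3.47 ± 0.42 for Hbb-bs. Alas2 reads were 10.0% to 19% of Hba-a1 reads in cortex and 26.5% to 56.3% in neurons, again with no overlap. Slc4a1 reads were 1.84% to 5.13% of Hba-a1 reads in cortex and 0% to 1.63% in neurons. The neuron values rest on 3 Slc4a1 reads over all 7 libraries. These ratios were chosen after the values had been seen and are given as a description, without a test. They stand beside the 51.1% of all genes called between the control tissues. The Hbb-bs value depends on how reads shared between near-copies were placed. Endothelial genes summed to 8.69 to 16.7 CPM over all neuron libraries, against 214.7 to 460.7 CPM in cortex.

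**Figure D5:**
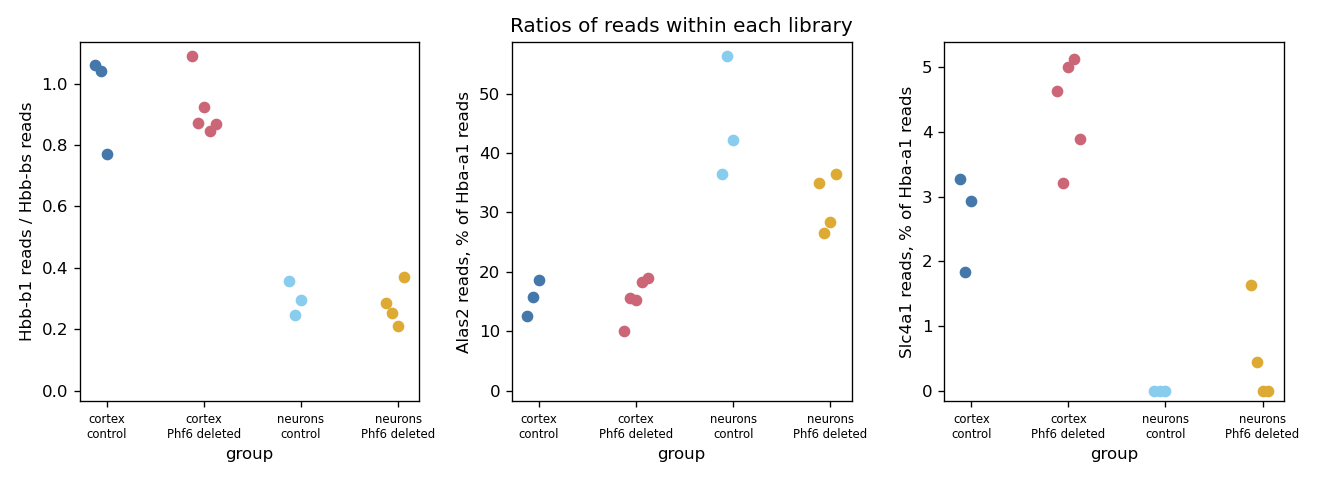
Ratios of reads within each library, one point per library by group: Hbb-b1 over Hbb-bs (left), Alas2 as a percentage of Hba-a1 (middle) and Slc4a1 as a percentage of Hba-a1 (right). Cortex and neuron libraries do not overlap in the left and middle panels. In the right panel the neuron values rest on 3 Slc4a1 reads over all 7 libraries, too few to separate the tissues.

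Of the other erythroid lists in this tissue comparison, haem synthesis and iron had 3 genes higher and 7 lower of 16 tested, where Tfrc was 1.26 higher on the log2 scale and Urod, an enzyme of haem synthesis, fell by 0.96. The red cell membrane list had 2 higher and 3 lower of 10 tested, and erythroid regulators had 6 higher and 10 lower of 21 tested, beside the 51.1% of all genes called. Many genes on these lists are also used by neurons and vessels, such as Slc2a1, the glucose transporter of the blood-brain barrier, which fell by 2.15 on the log2 scale.

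Phf6 deletion in neurons was followed by 0 calls among the 4 tested genes of the set, beside 0.273% of all genes tested, by 0 at an unadjusted p under 0.05 in edgeR, and by 0 with limma and with DESeq2. The log2 differences were 0.16 ± 0.20 for Hba-a1, −0.16 ± 0.21 for Hba-a2, −0.05 ± 0.20 for Hbb-bs and −0.39 ± 0.32 for Alas2 (SE). The genotype difference was then compared between tissues: 0 of 7 tested genes of the set were called, beside 0.0133% of all genes tested, and 0 had an unadjusted p under 0.05 (edgeR). Limma and DESeq2 also called 0. The cortex deletion is germline and the neuron deletion is driven by Nes-cre, so the kind of deletion and the tissue cannot be told apart here.

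Litters of neurons differed in adult globins. With genotype in the fit, 2 of 4 tested genes of the set were called, beside 5.01% of all genes tested. Litter 6 was below litter 4 by 1.41 on the log2 scale for Hbb-bs (adjusted p = 0.0101, edgeR) and by 1.58 for Hba-a2 (adjusted p = 0.0128, edgeR). Hba-a1 was lower by 1.06 and was not called (adjusted p = 0.0692, edgeR), and Alas2 by 0.73. Progenitor genes moved between the same litters, with 8 of 10 called, and their part in the result was not tested.

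By the fixed likeness rule, Pearson's r of log2(CPM + 0.5) with the log2 summed level of the set, the nearest of 13465 genes over the 8 cortex libraries were Pctp (r = 0.97), Dnmbp (r = 0.958) and Vsig10 (r = 0.957). None of the 15 nearest in cortex belonged to a fixed list of red cell, vessel or blood genes. In the 7 neuron libraries the nearest of 12802 genes was Dtl (r = 0.978), again with none of the 15 on a fixed list. When the 3 adult globins alone were summed, an alternative chosen after seeing the data, Hbb-b1 ranked 7 (r = 0.942), and Sh2b3 was nearest (r = 0.978). When the 3 embryonic globins alone were summed, likewise chosen after seeing the data, Six3, a forebrain transcription factor, was nearest (r = 0.97) and Hbb-b1 ranked 7924 (r = −0.156). The libraries share their litters and scaling, and with 8 points among this many genes such values are a description.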

How the data were processed

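RNA was sequenced from 15 libraries (TruSeq Stranded kit). The authors aligned reads to mm10 with Rsubread, counted them per gene with featureCounts against its inbuilt RefSeq annotation, and deposited raw counts. The strand and multi-mapping settings were not given in the sources used here. Of 27179 rows, 1029 without an identifier (0.349% to 0.605% of reads), 875 unmatched, 1273 with predicted names, 835 pseudogenes and 35 rRNA genes were left out, leaving 23132. Gene names came from RefSeq (GRCm38.p6).

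Groups and litters came from the labels. Counts were tested with edgeR 4.0.16 (filterByExpr, TMM scaling, robust quasi-likelihood fit, litter as a term in genotype tests; FDR 0.05). CPM used one TMM scaling over all libraries. Alternatives were median-of-ratios and total scaling, scaling without the set, no filter, limma 3.58.1, DESeq2 1.42.0, no litter term, the replicate block and leaving out each library. Tests were checked on simulated counts with dispersions estimated from these libraries. Named genes were the set, the called genes of smallest p of each fixed list, and the 15 genes nearest in pattern per tissue; ratios, Gata1 and Tal1 were added after values were seen. Some genes that the rule names are not reported here. The set and the lists were chosen with earlier results of these data known. The labels give a replicate number and litter, and the study gives its RNA-sequencing sample sizes in foetuses, with the same group sizes. The p-values measure the spread between these foetuses.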

Additional observations from a re-analysis of the deposited data

Results flagged for a closer look

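In 24 checks of members and their sums and shares within the Phf6-deleted groups, 8 had 1 library set apart from the others by Dixon's criterion, which chance meets in about 1 in 20 groups. Several of these checks share the same reads.

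In Phf6-deleted cortex, replicate 1 lay above the other 4 libraries. Hbb-y was at 249.9 CPM there against at most 39.9 CPM, Hba-x at 31.7 CPM against at most 8.07 CPM, and Hbb-bh1 at 2.06 CPM against at most 0.219 CPM. The summed level of the 3 embryonic globins was 283.6 CPM against at most 48.0 CPM. The embryonic share was 70.6% of beta-like reads against at most 22.3%, and 16.7% of alpha-like reads against at most 4.96%. Control replicate 1, of the same litter, was the highest control for each of these measures.

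In Phf6-deleted cortex, replicate 4 had 144.4 CPM of Hbb-bs against at most 74.5 CPM in the other 4 libraries. In Phf6-deleted neurons, replicate 2 had a Hba-x share of 0.452% of alpha-like reads, from 2 reads, while the other 3 libraries were at 0. With those at 0, any read in replicate 2 would have met the criterion, so this check decides nothing.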

How the results depend on the processing

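The count of called genes of the set was 0 under every alternative run for genotype in cortex, genotype in neurons and the genotype-by-tissue interaction. For control neurons against control cortex it was 7 to 8 under the alternatives that kept all libraries, and 5 to 7 when 1 library was left out. Between cortex litters it was 1, rose to 2 with no filter and with DESeq2, and was 0 without both libraries of litter 3, a setting chosen after seeing the data; leaving out 1 library gave 0 to 2. Between neuron litters it was 2 to 3.

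Over all genes, genotype in cortex called 57 genes, against 114 with no filter, 199 with DESeq2, 1 with no litter term and 10 without litter 3, and 7 to 81 with 1 library left out. Genotype in neurons called 38, against 73 with library totals, 297 with no filter, 62 with DESeq2 and 1 with no litter term, and 16 to 494 with 1 library left out. Between cortex litters 251 genes were called, against 482 with no filter, 830 with DESeq2 and 0 without litter 3, and 16 to 586 with 1 library left out. Between neuron litters 697 were called, against 1961 with no filter, and 488 to 2398 with 1 library left out. The interaction called 2, against 5 with no filter, 12 with DESeq2, 0 with no litter term and 1 without litter 3, and 0 to 4 with 1 library left out. The cause of these differences was not tested.

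Replicate numbers are shared by groups but mostly mark different litters, and same-numbered libraries did not all deviate together (r from −0.259 to 0.323). With the replicate number as a block in place of litter, 75 genes were called for genotype in cortex, 5 in neurons and 7522 between tissues, with 0, 0 and 7 genes of the set.

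Genes with few reads set the limits: in neurons Hba-x, Hbb-y, Hbb-bh1 and Slc4a1 could not be tested for genotype, and 3 reads correspond to 0.110 to 0.191 CPM in a neuron library.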
